A study of Mus musculus with 2 samples.

Results

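Lysosomal genes were followed as a set of 48 genes of 55536 annotated genes in the deposited tables, chosen by symbol. The set holds 21 genes for proteins of the lysosomal lumen, 10 for membrane proteins, 2 for transcription factors and 15 for the proton pump. All 48 symbols matched a gene of the annotation. They lie on 17 chromosomes, with 6 on the X chromosome (Atp6ap1, Atp6ap2, Gla, Ids, Lamp2 and Tfe3).

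The cells were primary macrophages of C57BL/6J mice, grown from bone marrow. They had received 100 ng/ml lipid A, the membrane anchor of bacterial lipopolysaccharide and a ligand of TLR4, for 12 h. After a wash-out of 12 h they were given 100 ng/ml lipid A again for 75 min, and ribosomal RNA was depleted from RNA of the cytosolic fraction before sequencing. The series forms 1 group with 2 biological replicates. Age and sex were not collected, and libraries without lipid A or with a single dose were not analysed here, so no level below measures a response to lipid A. Per the labels the replicates are separate biosamples with a shared donor code, so the spread between them may be technical in part.

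Lysosomes digest material that reaches them by endocytosis, phagocytosis and autophagy. Soluble acid hydrolases do the cutting, a coat of heavily glycosylated membrane proteins lines the organelle, and the V-ATPase pumps protons into the lumen so that the hydrolases work. In macrophages this system breaks down engulfed microbes and dead cells, and the transcription factors TFEB and TFE3 bind E-box sequences upstream of many of its genes.

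Levels are given in TPM (transcripts per library scaled to a fixed total and corrected for length), as the value in each replicate or as mean ± SD (n = 2). Detection required 1 TPM or more in each replicate. Detected genes were high at 100 or more, moderate at 10 to under 100 and low at 1 to under 10, and the lower band was taken where the replicates differed. Expected counts, the estimated reads per gene, summed to 64187252 in replicate 1 and 49429899 in replicate 2, of which 2442108 and 1959838 lay on the 48 genes. 7SL RNA took 62.9% and 60.3% of all TPM, which scales down the TPM of every messenger RNA without changing ratios within a library. All 10 macrophage markers were detected, 7 of them high, and none of 7 lymphocyte and 7 dendritic cell markers passed the minimum. In bulk RNA, fewer cells of a type and less RNA per cell cannot be told apart.

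Every one of the 48 lysosomal genes was detected. Among all annotated genes 16.7% were detected, and among protein-coding genes 40.0%. Their median level was 70.2 in replicate 1 and 58.7 in replicate 2 (64.5 ± 8.15), against 7.68 ± 0.50 for detected protein-coding genes. High levels were reached by 14 genes (29.2%), against 4.38% of detected protein-coding genes, while 29 were moderate and 5 low. In both replicates 45 lay above the median of detected protein-coding genes, and Arsa, Tfeb and Atp6v0d2 lay below it. The set was assembled from genes known to be active in lysosomes, so its position above the average gene is a description of these cells and not a test.

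A few genes carried much of the lysosomal RNA. Together the 48 held 3.29% and 3.64% of protein-coding TPM. Psap alone made up 29.8% and 33.3% of their summed TPM. The 4 highest genes, Psap, Gpnmb, Grn and Cd68, made up 56.8% and 59.1%.

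**Figure D1:**
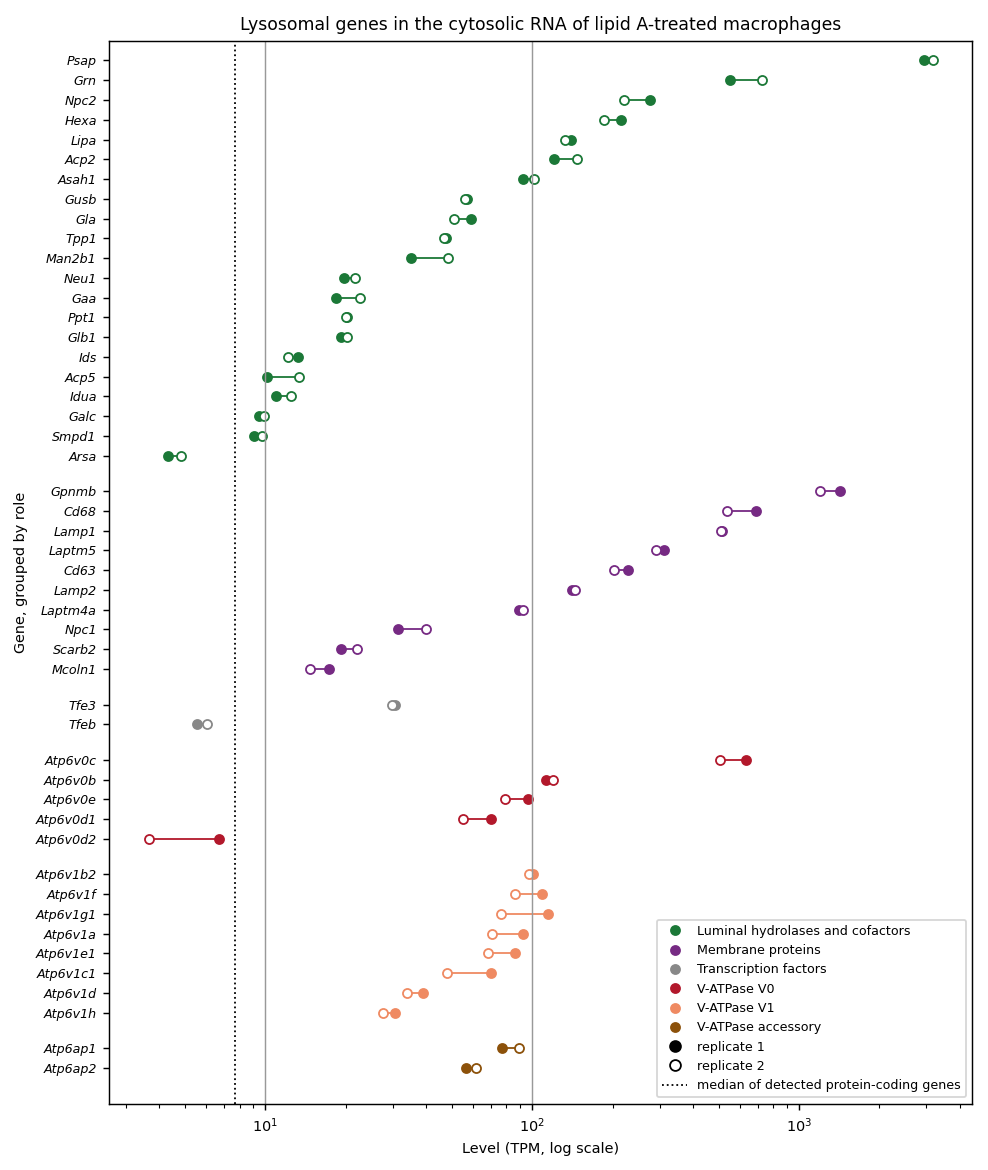
Level of each of the 48 lysosomal genes in TPM on a log axis, filled circles for replicate 1 and open circles for replicate 2, with genes grouped by role and sorted within it. The dotted line marks the median of detected protein-coding genes (7.68), and the grey lines mark 10 and 100. Psap stands alone at the top, at 2931 and 3180, and all V1 genes lie between 27.7 and 115.

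The luminal genes spanned the widest range. The highest exceeded the lowest by 682-fold in replicate 1 and 658-fold in replicate 2, and their median was 40.9 ± 8.31. Of the 21 genes, 6 were high, 12 moderate and 3 low. The 3 highest, Psap, Grn and Npc2, encode no hydrolase.

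Psap encodes prosaposin, which is cut into the saposins, small proteins that lift lipids out of membranes for the hydrolases. It read 2931 in replicate 1 and 3180 in replicate 2, rank 8 among detected protein-coding genes. Grn, the precursor of the granulin peptides and a binding partner of prosaposin, read 553 and 725 (rank 39). Npc2, which carries cholesterol out of the lumen to the membrane transporter NPC1, read 277 and 220. All 3 were high in both libraries, with Grn higher in replicate 2 and Npc2 higher in replicate 1.

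Psap (chr10:60277627-60302597, plus strand, mm10) has optional coding bases that are known to be spliced differently between tissues, and they are shown because they change the coding sequence of prosaposin. The windows hold 24 coding bases on each side of the join, 5′ to 3′, with the optional bases in capitals.
Psap-202: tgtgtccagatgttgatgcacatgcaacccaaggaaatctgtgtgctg
Psap-201: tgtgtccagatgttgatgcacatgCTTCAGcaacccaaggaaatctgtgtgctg
Psap-205: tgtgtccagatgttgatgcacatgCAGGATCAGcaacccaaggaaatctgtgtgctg
The 9 bases of Psap-205 form an exon of their own at chr10:60297537-60297545, and the 6 bases of Psap-201 (chr10:60299092-60299097) lengthen the next exon. Transcripts without optional bases, Psap-202 and Psap-203, held 97.7% and 96.9% of Psap TPM. Those with optional bases held 2.30% and 3.07%, and the larger part of this was Psap-205, at 1.57% and 2.15%. In the table quantified directly from the reads, optional bases were in 2.71% and 3.62%. Nearly all prosaposin mRNA lacked them, in both replicates and in both tables.

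The main Psap transcripts also differ in the coding exon that holds the start codon, shown with the ATG in capitals.
Psap-202: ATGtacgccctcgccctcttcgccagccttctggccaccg
Psap-203: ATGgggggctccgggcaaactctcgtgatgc
The exon of Psap-202 lies at chr10:60277743-60277782 and that of Psap-203 at chr10:60284501-60284531, 6758 bases downstream. Psap-202 held 56.4% and 55.1% of Psap TPM, and Psap-203 held 41.3% and 41.8%. By the read-based table Psap-203 held 30.7% and 33.7%. The split repeated closely between replicates, and the methods differed by more than the replicates did.

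Enzymes that trim sugars from larger molecules were led by Hexa, the alpha subunit of beta-hexosaminidase, at 215 and 186. Gusb, beta-glucuronidase, which acts on glycosaminoglycans, read 56.7 and 55.9, and Gla, alpha-galactosidase A, read 59.1 and 51.1. Man2b1, alpha-mannosidase, read 35.0 and 48.5. These 4 stood above the other glycosidases in both replicates. Neu1, the sialidase, read 19.7 and 21.7, Gaa, the glycogen-degrading alpha-glucosidase, 18.3 and 22.6, and Glb1, beta-galactosidase, 19.1 and 20.3. Gaa was the lowest of these in replicate 1 and the highest in replicate 2, so its place among them cannot be read.

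Ids, Idua and Arsa, for enzymes of glycosaminoglycan and sulfatide breakdown, were among the lowest luminal genes, while Gusb was not. Ids, iduronate sulfatase, read 13.3 and 12.1, and Idua, alpha-L-iduronidase, read 10.9 and 12.5. Arsa, arylsulfatase A, which removes sulfate from sulfatide, read 4.30 and 4.83 and was the lowest luminal gene. Ids and Idua lay just above the moderate boundary, and Arsa lay below it in both replicates.

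Sphingolipid enzymes were uneven. Asah1, acid ceramidase, read 92.5 and 101, while Smpd1, acid sphingomyelinase, read 9.10 and 9.72 and Galc, galactosylceramidase, read 9.49 and 9.85. Smpd1 and Galc differed from each other by no more than their replicates did. Lipa, the acid lipase that frees cholesterol and fatty acids from lipoprotein esters, read 140 and 132. Ppt1, which removes palmitate from proteins, read 20.2 and 20.0, and Tpp1, a tripeptidyl peptidase, read 47.5 and 46.8. The exons of Ppt1 overlap those of Cap1, on the opposite strand, by 129 bases, and Cap1 read 130 and 122. Strandedness is not given in the sources used here, so reads in that overlap cannot be assigned with certainty.

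The acid phosphatases were far apart. Acp2, the housekeeping lysosomal phosphatase, read 120 and 148. Acp5, tartrate-resistant acid phosphatase and a marker of osteoclasts, read 10.1 and 13.4. On the log2(TPM + 0.1) scale, used for all such differences below, Acp5 minus Acp2 was -3.51 ± 0.07 (SD, n = 2), a difference far larger than the spread between replicates.

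Membrane proteins had the highest median of the classes, 179 ± 7.90, 6 of 10 high and none low. Gpnmb, a glycoprotein of macrophage endosomes and lysosomes, read 1421 and 1197 (rank 14). Cd68, a heavily glycosylated membrane protein used as a macrophage marker, read 687 and 538. Lamp1, a major component of the membrane coat, read 513 and 508. All 3 ranked among the 14 high genes, and Lamp1 differed least between them.

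Laptm5, a lysosomal membrane protein of blood cells, read 311 and 290, and its relative Laptm4a read 89.5 and 92.2. Cd63, a tetraspanin of late endosomes, read 229 and 203. Npc1, the cholesterol transporter, read 31.3 and 40.0, below its partner Npc2 in both replicates. Scarb2, a scavenger receptor family protein of the lysosomal membrane, read 19.1 and 22.0. Mcoln1, a calcium channel of the lysosomal membrane, read 17.4 and 14.7 and was the lowest of the class.

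Lamp1 exceeded its closest relative Lamp2, which read 141 and 145, by 1.84 ± 0.04 on the log2 scale, or 3.57-fold. Both replicates gave nearly the same difference. The coding sequences of Lamp1-201 and Lamp2-202 were 49.7% identical over 1271 aligned positions.

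Lamp2 (chrX:38401357-38456454, minus strand, mm10) makes 3 proteins that differ in the membrane-spanning segment and the cytosolic tail, because the last coding exon is chosen from 3. The coding part of each exon, without the stop codon, is shown since the choice decides the tail: LAMP-2A is the receptor of chaperone-mediated autophagy, LAMP-2B has been linked to the fusion of autophagosomes with lysosomes, and LAMP-2C to the uptake of nucleic acids. Capitals mark the last 4 codons, which begin with the tyrosine codon of the sorting signal. The order is that along the gene.
Lamp2-202 (LAMP-2B): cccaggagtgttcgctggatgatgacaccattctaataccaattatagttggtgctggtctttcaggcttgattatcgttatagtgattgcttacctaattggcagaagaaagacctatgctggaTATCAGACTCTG
Lamp2-201 (LAMP-2A): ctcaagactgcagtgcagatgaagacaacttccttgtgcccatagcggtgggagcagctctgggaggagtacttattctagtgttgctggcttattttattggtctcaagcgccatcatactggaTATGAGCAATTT
Lamp2-203 (LAMP-2C): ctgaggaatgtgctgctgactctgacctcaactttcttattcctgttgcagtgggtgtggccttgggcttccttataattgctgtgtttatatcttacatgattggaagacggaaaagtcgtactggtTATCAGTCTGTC
They lie at chrX:38421715-38421851, chrX:38405435-38405571 and chrX:38402142-38402281, which is 2415, 18695 and 21985 bases past the last shared coding exon. The forms were named by the codons at the end of each. The exons of LAMP-2A and LAMP-2B were 56.5% identical.

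LAMP-2A and LAMP-2B messages shared nearly all of Lamp2. LAMP-2B held 47.99% of Lamp2 TPM in replicate 1 and 52.8% in replicate 2, and LAMP-2A held 51.5% and 46.7%. Their log2 ratio, A over B, was -0.04 ± 0.20, and its sign differed between the replicates. By the read-based table LAMP-2A held 56.5% and 51.4% and the ratio was 0.25 ± 0.21. No order between them can be read from these libraries. LAMP-2C held 0.37% and 0.40%, against 0.36% and 0.39% in the read-based table.

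Length correction matters for this comparison. The LAMP-2B transcript is 3604 bases long and the LAMP-2A transcript 1769. Of the expected counts, which are not corrected for length, LAMP-2B took 66.8% and 70.9%.

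Tfe3 and Tfeb encode the transcription factors that act on lysosomal genes. Tfe3 read 30.6 and 29.8, and Tfeb read 5.55 and 6.06. The difference was 2.36 ± 0.12 on the log2 scale, a 5.13-fold excess of Tfe3. Tfe3 RNA was spread over several coding transcripts. None held above 29.4% in either replicate by alignment, and none above 34.3% in the read-based table. Tfeb-202 held 58.8% and 51.7% of Tfeb by alignment, and 83.7% and 68.1% in the read-based table. Of their relatives, Mitf read 14.6 and 14.4, and Tfec read 24.5 and 12.1. Tfec was above Mitf in replicate 1 and below it in replicate 2.

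Both factors recognise CACGTG, the E-box core of the lysosomal gene element, so the promoter windows of RefSeq (GRCm38.p6), which run from 250 bases before to 50 after each start, were searched for it. The motif is its own reverse complement, so a single search covers both strands. Of the 48 genes 41 had a window, and CACGTG was in that of 10 (24.4%): Arsa, Atp6v0b, Atp6v0d1, Atp6v0e, Atp6v1a, Gaa, Gla, Glb1, Lamp1 and Mcoln1. The motif was in 7.15% of all 32851 windows and in 8.09% of all symbols. Windows and symbols of genes not detected here are included, and the share among detected protein-coding genes was not computed. The longer form TCACGTGA, which contains CACGTG, was in 5 of the 41 (Atp6v0d1, Atp6v0e, Atp6v1a, Gla and Mcoln1), or 12.2%. Of all symbols 1.12% had the longer form, and of all windows 0.974%. A match is a description of letters and not a bound site. The windows of 4 genes are shown with the matches in capitals, because they span the range of levels.
Lamp1: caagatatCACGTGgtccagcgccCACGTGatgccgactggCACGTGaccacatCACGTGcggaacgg
Atp6v0b: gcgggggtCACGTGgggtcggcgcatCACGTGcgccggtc
Atp6v1a: ttttaaaTCACGTGAtaggctt
Arsa: ctcagtgtCACGTGttgtctgc
They lie at chr8:13159092-13159159 (plus strand), chr4:117887334-117887373 (minus), chr16:44139377-44139398 (minus) and chr15:89477427-89477448 (minus). Lamp1 has 4 copies between 61 and 15 bases upstream of its start, Atp6v0b has 2, and the others have 1. Genes with the motif were not higher than those without: the median over genes of the mean TPM was 58.9 for the 10 and 77.3 for the other 31. Lamp1, with 4 copies, and Arsa, with 1, were at opposite ends of the range.

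The V-ATPase genes were compared by part. V0 is the membrane part that conducts protons, and V1 is the part that hydrolyses ATP in the cytosol. V1 genes had a median of 79.3 ± 13.8 and all 8 were moderate, with the highest exceeding the lowest by 3.76-fold in replicate 1 and 3.52-fold in replicate 2. V0 genes had a median of 87.9 ± 12.3. Without Atp6v0d2, which was far below the rest, the highest exceeded the lowest by 8.99-fold and 9.16-fold. This wider range came from Atp6v0c, at 632 and 503, while Atp6v0b, Atp6v0e and Atp6v0d1 lay between 55.0 and 119. The difference of medians, V0 minus V1, was 0.15 ± 0.05 on the log2 scale, and on CPM, expected counts scaled by library total without length correction, it was -0.062, so no order of V0 and V1 can be read.

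Atp6v0c, the c subunit of the proton-carrying ring, was the highest V0 gene, at 632 and 503 (rank 47). Atp6v0b, the c″ subunit of that ring, read 113 and 119. Atp6v0e, a small membrane subunit, read 96.6 and 79.1. Atp6v0c exceeded Atp6v0d1, which read 70.3 and 55.0 and encodes a subunit of the central stalk, by 3.18 ± 0.02 on the log2 scale, or 9.06-fold. The assembled V0 part contains several c subunits and a single d subunit, and a link of this to the RNA levels was not tested. Expected counts of Atp6v0c are not whole numbers (68022.75 and 44137.52), which means that part of its reads also fit other features, and its level is uncertain to that extent.

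In V1, Atp6v1a and Atp6v1b2 encode the A and B subunits that form the ATP-hydrolysing head. Atp6v1a read 92.2 and 70.7, and Atp6v1b2 read 100.9 and 97.4. Their mean levels differed by less than the range of Atp6v1a over its replicates. The stator subunits Atp6v1e1 and Atp6v1g1 read 86.0 and 68.5, and 115 and 76.5. Atp6v1c1, which links V1 to V0 and regulates assembly, read 70.1 and 48.1. The rotor subunits Atp6v1d and Atp6v1f read 38.9 and 33.9, and 108 and 86.0. Atp6v1h, the regulatory H subunit, read 30.6 and 27.7. Atp6v1h and Atp6v1d were the lowest of the 8 in both replicates. The accessory proteins Atp6ap1 and Atp6ap2, needed for assembly of the pump, read 77.3 and 89.3, and 56.3 and 61.5.

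Luminal genes had a lower median level than the 15 V-ATPase genes. The difference, luminal minus V-ATPase, was -0.94 ± 0.49 on the log2 scale, -1.29 in replicate 1 and -0.59 in replicate 2. On CPM it was 0.51. Luminal messages are longer, with a median length of 2846 bases against 1624 for V0 and V1 genes, so the statement holds per transcript and not per read.

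Alternative genes for the same subunit were mostly under the detection minimum. Atp6v0d2, the d subunit gene of osteoclasts and some macrophages, read 6.68 and 3.65, and Atp6v0d1 exceeded it by 3.63 ± 0.35 on the log2 scale (12.3-fold). The coding sequences of the pair were 65.7% identical. Among the remaining alternative genes, Atp6v1b1, Atp6v1c2, Atp6v1e2, Atp6v1g3 and Atp6v0a4 were tied at 0 in both replicates, and Atp6v1g2 read 1.15 and 0.56. A count of 0 allows up to 3 counts, which is 0.0467 CPM in replicate 1 and 0.0607 in replicate 2, for counting error only. Where a V1 subunit has more than 1 gene, a single gene passed the minimum. Subunit a was different: Tcirg1, the a3 form, read 127 and 128, and Atp6v0a1 read 38.8 and 41.2.

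**Figure D2:**
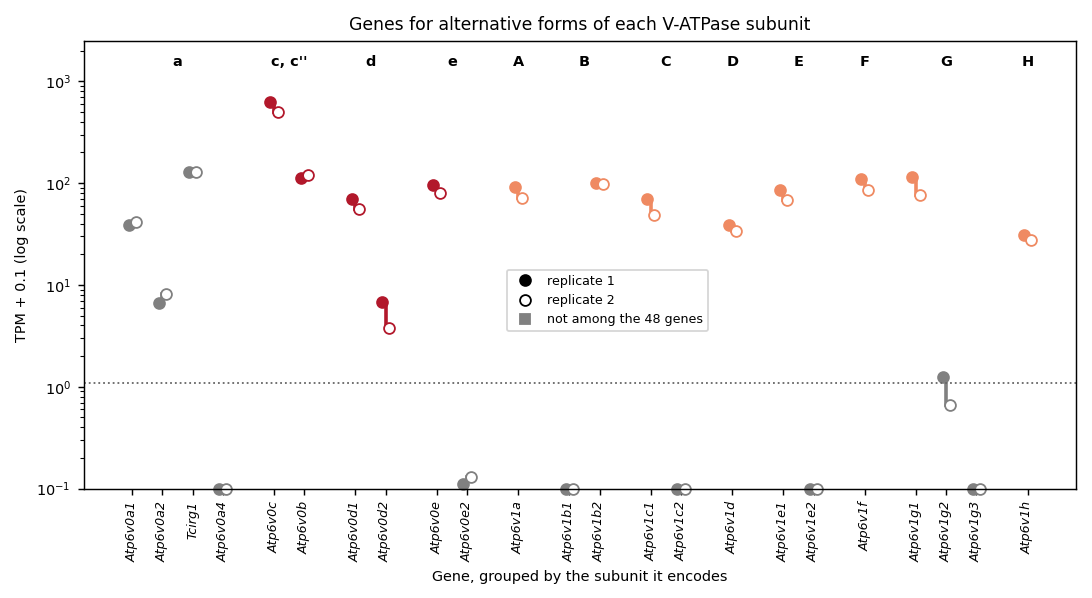
Level of each V-ATPase subunit gene as TPM + 0.1 on a log axis, grouped by the subunit named above the points, filled circles for replicate 1 and open circles for replicate 2. Grey marks genes outside the 48, red V0 and orange V1, and the dotted line is the detection minimum of 1 TPM. For subunits B, C, E and G, a single gene lies above the line in both replicates, and subunit a has 3.

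Atp6v0d2 and Acp5 are also osteoclast markers. Of the 10 osteoclast markers only these and Nfatc1, a transcription factor (8.94 ± 1.05), were detected. Ctsk, the main bone-resorbing protease, read 0.62 and 0.47, Calcr, the calcitonin receptor, was listed at 0 in both, and Ocstamp, needed for cell fusion, read 0.01 in both.

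The rest of the lysosomal system was present with a few absences. Of 24 other hydrolases and cofactors all were detected, with a median of 27.0 ± 2.12. The highest was Ctsa, the protective protein that stabilises sialidase and beta-galactosidase, at 272 ± 12.5. The lowest were Hyal2, a hyaluronidase, at 2.96 ± 0.27 and Plbd1, a phospholipase-like protein, at 1.86 ± 0.18. Of 24 other membrane proteins 20 were detected, with a median of 8.02 ± 0.15. Slc11a1, the metal transporter of phagosomes, read 141 ± 21.3, Clcn7, the chloride exchanger, 69.0 ± 2.62 and Cd164, a sialomucin, 52.9 ± 0.56. Lamp3 and Lamp5, relatives of Lamp1 with narrow tissue ranges, were listed at 0 in both replicates.

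Among 16 other V-ATPase subunits and factors 8 were detected. Tcirg1 was the highest (128 ± 0.92), followed by Rnasek, a small pump-associated protein, at 108 ± 19.3. Of 22 genes for sorting and control 21 were detected, none of them high. M6pr, the cation-dependent receptor that carries hydrolases to lysosomes, read 93.7 ± 11.0, and Lamtor1 and Lamtor5, of the complex that anchors mTORC1 signalling at lysosomes, read 71.4 ± 5.54 and 54.2 ± 10.5. Mtor itself read 4.11 ± 0.64. Sort1, a sorting receptor, read 1.13 and 0.98 and was the gene of this list that missed the minimum.

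Most of the 48 genes were expressed as a single transcript. Of their 264 annotated transcripts, 1 held 90% or more of the gene's TPM in 31 genes, and the median share of the leading transcript was 97.1%. A transcript annotated as protein-coding led in 47 genes. The same transcript led in both replicates for 46 genes, and in both the alignment-based and the read-based tables for 45. No shares over all detected genes stand beside these counts, so they are not read as particular to lysosomal genes.

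Arsa was the exception. Its leading transcript, Arsa-201, is annotated as a retained intron with no coding sequence and held 63.1% and 70.8% of Arsa TPM. The read-based table gave 57.1% and 65.2%. Arsa-202, which codes for the enzyme, read only 1.30 and 1.33 TPM. The low level of Arsa therefore lies lower still for coding transcripts.

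For other genes the retained intron depended on the unit or the table. Atp6v1d-202, a retained-intron transcript of 775 bases, held 44.6% and 47.1% of Atp6v1d TPM and 58.3% and 58.4% by the read-based table. It took only 11.5% and 12.5% of the gene's expected counts, since the coding transcript is 3667 bases long. Npc1-206, also a retained intron, held 37.8% and 35.7% of Npc1 TPM, but 7.85% and 3.79% by the read-based table. Gusb-206, annotated as a target of nonsense-mediated decay, held 17.0% and 17.4%, against 1.48% and 1.74% by the read-based table. For Arsa and Atp6v1d both tables gave a large share, and for Npc1 and Gusb they did not. Other genes went the opposite way. Retained introns held a mean of 6.18% of Acp2 and 4.40% of Tpp1 by alignment, and 24.9% and 15.8% in the read-based table. Transcripts annotated as decay targets held 2.32% of Asah1 and 3.17% of Man2b1 by alignment, and 17.0% and 17.3% in the read-based table.

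**Figure D3:**
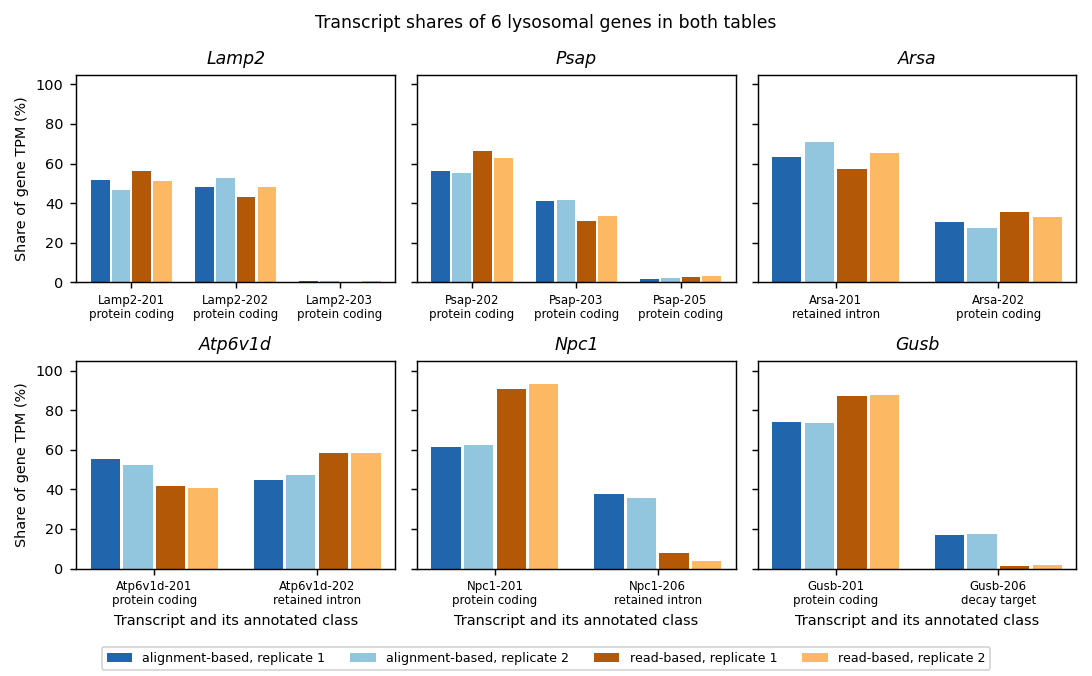
Share of gene TPM (%) held by selected transcripts of 6 lysosomal genes, with bars for each replicate and table and the annotated class under each transcript. Lamp2-201 and Lamp2-202 are near equal, Arsa-201 is above 57% in every bar, and Npc1-206 and Gusb-206 are high only in the alignment-based table.

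Several other genes had a second transcript with at least 15% of TPM. Gaa-203 and Gaa-201 held 52.6% and 46.2% in replicate 1 and 47.0% and 52.6% in replicate 2, and both have a coding length of 2859 bases. Acp5-201 and Acp5-202 share a coding length of 981, and Atp6v1a-202 and Atp6v1a-201 one of 1851. Equal length does not show equal sequence. The 3 main Tfe3 transcripts have coding lengths of 1401, 1296 and 1716. Idua-203 held 29.4% and 27.3%, against 0.00069% and 7.0% in the read-based table. Mcoln1-209 held 23.5% and 12.1% by alignment, and 0% and 0.73% by the read-based table. Tfeb-212 held 37.3% and 46.4%, against 5.30% and 17.5%.

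Replicate agreement was counted by a fold rule. A gene was counted as apart where its TPM differed at least 1.5-fold, and with 1 library on each side no p-value was computed. Of the 48 genes 2 were apart, against 10.3% of 9302 detected genes and 9.19% of detected protein-coding genes. The read-based table put 18 apart, all lower in replicate 2, against 46.0% of the genes tested there. The 2 genes were V-ATPase genes that were lower in replicate 2. Atp6v0d2 was 1.83-fold lower, and Atp6v1g1 was 1.502-fold lower, at the boundary. Expected counts of Atp6v1g1 are not whole numbers (11792.23 and 6386.47), so part of its reads also fit other features. With library sizes scaled by TMM only Atp6v0d2 was apart, with a ratio of replicate 2 to replicate 1 of 0.58 (exact binomial 95% interval 0.533 to 0.632, counting error only). With DESeq2 size factors Man2b1, higher in replicate 2, joined Atp6v0d2. With either table rescaled to protein-coding genes, Man2b1 and Acp5, both higher in replicate 2, joined it.

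The direction of the difference is given here by role. Detected protein-coding genes had a median log2 ratio, replicate 2 over replicate 1, of -0.14, and 68.6% were lower in replicate 2. Luminal genes had a median of 0.10, with 13 of 21 higher in replicate 2. The 24 other hydrolases and cofactors had a median of 0.033, with 13 higher and 11 lower. The V0 and V1 genes of the set had a median of -0.33, with 12 of 13 lower, Atp6v0b being the exception. This did not extend to all pump genes. Both accessory genes were higher in replicate 2, as were 6 of the 8 detected V-ATPase subunits and factors outside the set, which had a median of 0.055. Against the median of detected protein-coding genes, 18 of 21 luminal genes lay above and 11 of 13 V0 and V1 genes below. The same counts came from TPM, from expected counts and from the read-based table, and a factor that multiplies all genes alike cannot change them. Directions against no change do depend on such factors. Over 6 scalings of these tables, V1 genes lower in replicate 2 numbered from 6 to 8 of 8, and luminal genes higher from 2 to 19 of 21.

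Transcript length moved with this ratio. For detected protein-coding genes the median log2 ratio was -0.41 under 1000 bases, -0.23 at 1000 to under 2000, -0.11 at 2000 to under 4000 and 0.0040 at 4000 or more. Within 2000 to under 4000 bases, 4 V0 and V1 genes had a median of -0.37 and 17 luminal genes one of 0.10. The part of length in the difference was not tested beyond these values. With 2 libraries, these differences describe the libraries and not a condition.

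**Figure D4:**
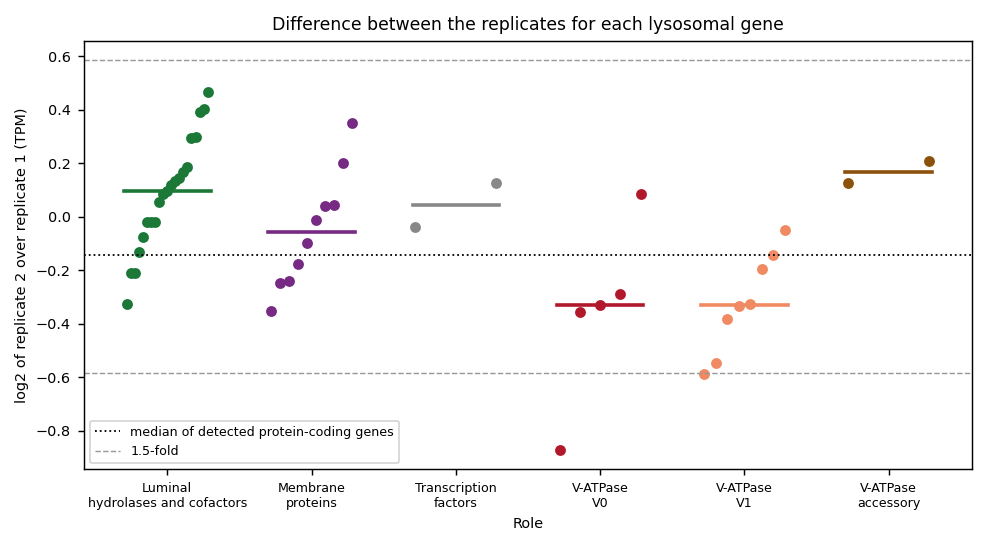
Log2 ratio of TPM, replicate 2 over replicate 1, for each lysosomal gene, grouped by role, with a bar at the median of each role. The dotted line is the median of detected protein-coding genes (-0.14) and the dashed lines mark 1.5-fold. Luminal genes lie mostly above the dotted line and V0 and V1 genes mostly below, with Atp6v0d2 the lowest point.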

How the data were processed

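Total RNA of the cytosolic fraction was measured in 2 libraries of 1 group. The authors deposited expected counts and TPM per gene and transcript from an alignment, per the file headers. Transcript shares are the deposited percent of a gene's TPM, as named in the file headers. A read-based transcript table with estimated counts and TPM was also deposited and was summed per gene here. The labels name mm10 and GENCODE M21. For the aligner, the quantifiers and strandedness, what was used is not given in the sources used here.

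Of 81881 features in the gene tables, the 55536 annotated genes were kept. Expected counts were rounded before scaling by TMM in edgeR 4.0.16 or size factors in DESeq2 1.42.0 (R 4.3.3). Levels between genes were compared in TPM, with a pseudocount of 0.1 on the log2 scale, and group medians also in CPM as an alternative. Of the 48 genes 11 had an expected count that is not whole, so some of their reads were shared with other features. The fold rule, applied to TMM-scaled counts, and its intervals were run on simulated counts that held counting error only. Variation between replicates was not simulated, so that run does not show how the rule behaves under it. Members and gene lists were chosen with earlier results of these data known. All 48 members could be named. For each list of other lysosomal genes the 3 highest and 2 lowest could be named, and for each member the leading transcript and any with a mean share of at least 15%. Mitf, Tfec, Cap1, Atp6v1g2 and the osteoclast markers were named after their values were seen. Some genes the rule allows are not reported here. Marker lists gave these counts detected: macrophage 10 of 10, osteoclast 3 of 10, neutrophil 2 of 8, dendritic cell 0 of 7, lymphocyte 0 of 7, erythroid and megakaryocyte 1 of 6, stroma and endothelium 1 of 6. Alternatives covered scale, table, pseudocount, minimum and each replicate left out.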

Additional observations from a re-analysis of the deposited data

How the results depend on the processing

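Over 9 results and 42 alternatives, 33 stayed in place, 7 moved and 2 reversed. In place meant a count within 1.5 times of the reported one, or another value within 1 SD. Some of the 33 could not have failed. With 2 replicates, each replicate always lies within 1 SD of their mean. Leaving out a replicate therefore could not take the median level, a difference or the Lamp2 share out of place. Limiting medians to genes at 1 TPM or more changed nothing, since every lysosomal gene was detected. The tally is thus not a measure of robustness for these alternatives. A count in place can hold other genes: DESeq2 size factors also put 2 genes apart, Man2b1 and Atp6v0d2. TPM rescaled to protein-coding genes put 34 genes at 100 or more in place of 14 and raised the median member level to 229. The read-based table gave 7 genes and a median of 33.9, and it put 18 genes at least 1.5-fold apart between replicates, where 46.0% of all genes tested were apart. Rescaled to protein-coding genes, an alternative chosen after seeing the data, the read-based table gave 3. TMM scaling gave 1. On CPM, without length correction, luminal minus V-ATPase was 0.51 and V0 minus V1 was -0.062. The Lamp2 leading transcript share, that of Lamp2-202, was 45.5% by the read-based table, where Lamp2-201 led. With 1 replicate left out, 15 and 17 genes were high and the median was 58.7 and 70.2. Luminal minus V-ATPase was then -0.59 and -1.29, and Atp6v0d1 minus Atp6v0d2 was 3.88 and 3.38. No paired analysis was possible because the series has 1 group. With 2 libraries no level has more than 1 degree of freedom behind its SD.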
